A study of Homo sapiens with 9 samples.

Results

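Messenger RNA of the cytosolic heat shock chaperones was compared between MDA-MB-231 cells that had received Compound Kushen Injection (CKI), Kushen injection or Baituling injection. The set held 10 genes of the 24344 in the count table, chosen by symbol: HSPA1A, HSPA1B, HSPA8, HSPH1, HSP90AA1, HSP90AB1, DNAJB1, HSPB1, BAG3 and HSF1. All 10 passed the filter on low counts that kept 14195 genes. MDA-MB-231 is an established human breast adenocarcinoma line, and CKI is an injection prepared from the herbs Kushen and Baituling. Treatment lasted 48 h in all 9 libraries, with CKI at 2.0 mg/mL of total alkaloids in 3 libraries and each single-herb injection, diluted to match CKI, in 3 libraries. The submitters call the 3 libraries of a group biological replicates. All groups received an injection, untreated cells were not analysed here, and every difference below is between 2 treatments.

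Heat shock proteins hold unfolded or newly made proteins until they fold, and pass those that cannot fold on for degradation. HSP70 proteins bind and release clients in a cycle that is started by J-domain partners and ended by nucleotide exchange factors, and many clients then move on to HSP90. Heat shock factor 1, encoded by HSF1, is held inactive by chaperones in unstressed cells, and on heat, oxidation or other protein damage it binds repeats of the letters GAA and TTC in front of chaperone genes and raises their transcription. Cancer cells often contain large amounts of these proteins, and raised HSPB1, HSP70 and HSP90 are well known in breast cancer.

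The binding letters of HSF1 are shown first, because HSF1 acts on chaperone genes through them. Not every gene of the set was found to hold them. A pair of units (GAANNTTC or TTCNNGAA) was looked for in the 250 bases in front of the RefSeq starts of a gene, on GRCh38.p14. Each word reads the same on both strands, and a triplet (GAANNTTCNNGAA or TTCNNGAANNTTC) contains 2 overlapping pairs. HSF1 itself has no entry in that table. Of the other 9 genes, 7 (77.8%) held a pair, against 14% of 27305 genes, and 3 (33.3%), HSPA8, HSP90AA1 and HSP90AB1, held a triplet, against 0.557% of genes. In single windows the shares were 11.6% and 0.441% of 35116. The genes were chosen by name as heat shock genes, so their excess over all genes is a description and no test. Among the other chaperone lists described below, the share with a pair ran from 0% (heat shock factors and binding partners) to 50% (small heat shock proteins, 3 of 6). In the HSP70 system 38.9% of 18 genes held a pair and 11.1% a triplet. HSPH1 and BAG3 had no such letters in this window. The stretches around the matches are given 5′ to 3′ along the gene, placed on GRCh37 (the same assembly as hg19) by exact match, with the matched units in capitals. HSPA8 held a further triplet, starting 230 bases before its start, that is not shown.
HSPA1A, chr6:31783194-31783241, plus strand: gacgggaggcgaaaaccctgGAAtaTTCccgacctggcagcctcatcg
HSPA1B, chr6:31795390-31795437, plus strand: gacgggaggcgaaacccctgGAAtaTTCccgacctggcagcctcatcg
HSPA8, chr11:122932879-122932907, minus strand: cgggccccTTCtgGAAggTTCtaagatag
HSP90AA1, chr14:102553422-102553489, minus strand: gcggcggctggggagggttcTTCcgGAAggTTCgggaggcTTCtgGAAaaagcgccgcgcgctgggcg
HSP90AB1, chr6:44215495-44215600, plus strand: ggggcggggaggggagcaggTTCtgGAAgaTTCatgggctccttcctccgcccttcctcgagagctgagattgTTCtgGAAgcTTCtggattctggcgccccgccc
DNAJB1, chr19:14629229-14629306, minus strand: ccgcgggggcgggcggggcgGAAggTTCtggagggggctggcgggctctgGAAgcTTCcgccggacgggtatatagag
HSPB1, chr7:75931788-75931835, plus strand: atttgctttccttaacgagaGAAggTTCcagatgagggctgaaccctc

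The stretches of HSPA1A and HSPA1B, 48 bases each, differed at 1 base (A15C, counted from the first base shown, HSPA1A first). Those of HSPA1A, HSPA1B and HSPB1 lay in front of the annotated gene. Those of HSP90AA1, HSP90AB1 and DNAJB1 lay inside the span of longer annotated transcripts but in no exon, and that of HSPA8 overlapped an exon of a longer HSPA8 transcript. A match of letters is a description of the sequence and no measurement of binding.

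The libraries held 20144628 to 23782071 counts, and the 3 groups overlapped in depth. Values are given as CPM, a gene's counts relative to its library's total after that total was corrected by a TMM factor. Of the markers of the line, VIM, CD44, EGFR and ITGB1 were abundant in every library, ESR1 had 0 to 3 counts and PGR 0 to 4, while ERBB2 had 1412 to 2155, EPCAM 162 to 280 and CDH1 11 to 51. The mesenchymal marker VIM moved with treatment, at 337 to 364 CPM with CKI, at 563 to 599 with Kushen and at 2014 to 2116 with Baituling. EGFR was higher in CKI (log2 fold change 0.79) and in Kushen (0.78) than in Baituling, while VIM was lower (-2.56 and -1.83), as were CDH1 (-1.34 and -1.75) and EPCAM (-0.81 and -0.89), both epithelial markers at low counts. Their part in the chaperone values was not tested. TMM factors were 0.877 to 0.899 in the Baituling libraries and above 1 in the other 6, so small differences from Baituling depend on the scaling. When plain library totals were used instead, the median gene shifted on the log2 scale by 0.29 (CKI against Baituling), 0.21 (Kushen against Baituling) and 0.08 (CKI against Kushen).

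HSPB1 set Baituling apart from both other treatments, and it was the only gene of the set that changed more than 2-fold. On the TMM scale most of the other genes were also lower in CKI and Kushen than in Baituling, by less than that, while HSPH1 was higher. On library totals 4 of the 10 genes were higher and 4 lower in CKI than in Baituling. For Kushen against Baituling 2 were then higher and 5 lower. Between CKI and Kushen the inducible HSP70 genes and HSPH1 were higher with CKI on the TMM scale, and HSPA8 and both HSP90 genes were lower. The sum of the 10 genes made up 0.553% to 0.565% of all counts with CKI, 0.583% to 0.604% with Kushen and 0.627% to 0.637% with Baituling, groups that did not overlap. In bulk RNA, a lower level in every cell and fewer cells with a high level cannot be told apart.

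**Figure D1:**
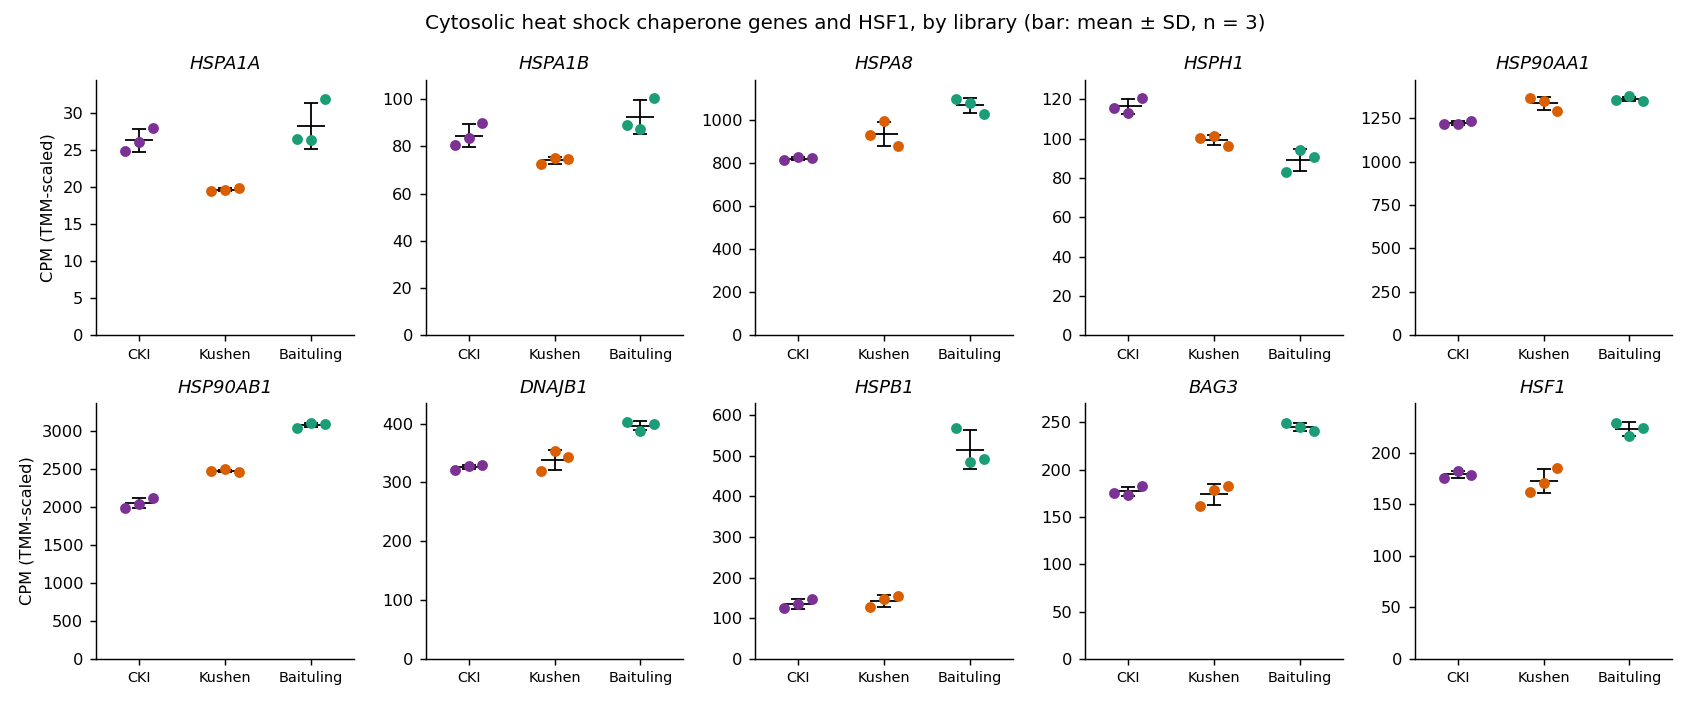
CPM (vertical axes, from 0) of the 10 genes in each library, with 3 points per treatment and a bar for the mean ± SD (n = 3). HSPB1 lay at 484 to 569 CPM in Baituling and at 124 to 155 in the other 6 libraries, and HSP90AB1 stood in the order CKI, Kushen, Baituling.

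Per kb of the canonical transcript, which allows levels to be compared between genes, HSP90AB1 led with a mean of 993 CPM per kb over the 9 libraries. HSPA8 (416) and HSP90AA1 (405) followed, then HSPB1 (340), DNAJB1 (158), HSF1 (89.9), BAG3 (77.6), HSPA1B (33.2), HSPH1 (19.4) and HSPA1A (10.3). HSPA8 and HSP90AA1 were not separated in Kushen, where their libraries spanned 389 to 439 and 401 to 423 CPM per kb. In CKI HSPA8 was lower (359 to 366 against 377 to 383), and in Baituling it was higher (455 to 485 against 419 to 427). HSPB1, at 623 to 732 CPM per kb in Baituling, stood there above both of these genes, and in CKI (159 to 190) and Kushen (163 to 200) below both. Parts of this order depended on the length used. Per kb of all annotated exons, HSP90AA1 exceeded HSPA8 in CKI (mean 240 against 169), Kushen (262 against 193) and Baituling (267 against 220). BAG3 (63.5 to 89.5) then also exceeded DNAJB1 (39.9 to 48.4) and HSF1 (32.6 to 42.1). HSP90AB1, HSP90AA1 and HSPA8 together took 76.9% to 83.2% of the counts of the set.

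HSPA1A and HSPA1B encode the stress-inducible HSP70, which is scarce in unstressed cells. They lie side by side on chromosome 6, HSPA1A at 31783320 to 31785723 and HSPA1B at 31795515 to 31798031 on the plus strand of GRCh37. Of the 150-base stretches of their transcripts, 69.6% of the 2251 in HSPA1A and 70.1% of the 2368 in HSPA1B also occurred in a transcript of another gene, either the partner HSP70 gene or a noncoding gene model that overlaps HSPA1B, so the split of reads between them is uncertain. HSPA1A was at 24.9, 26.2 and 28.0 CPM in CKI, at 19.47, 19.69 and 19.96 in Kushen and at 26.6, 26.4 and 31.9 in Baituling. Kushen was low in all 3 libraries, and CKI and Baituling overlapped. Against Kushen, CKI was higher by 0.42 ± 0.07 on the log2 scale (edgeR estimate ± SE, adjusted p = 0.000194). Kushen was lower than Baituling (log2 fold change -0.52 ± 0.08, adjusted p = 5.28e-06), while CKI against Baituling did not pass (-0.10, 95% interval -0.25 to 0.05, adjusted p = 0.225) and turned to 0.19 on library totals (adjusted p = 0.0293).

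HSPA1B was at 80.5, 83.6 and 89.8 CPM in CKI, at 72.5, 74.9 and 74.7 in Kushen and at 89.2, 87.4 and 100.5 in Baituling. As for HSPA1A, Kushen was the lowest treatment, without overlap with either other group. The log2 fold change was 0.19 ± 0.05 in CKI against Kushen (adjusted p = 0.00874) and -0.32 ± 0.06 in Kushen against Baituling (adjusted p = 3.94e-05). The first of these did not pass without CKI replicate 3 (adjusted p = 0.0625), nor the second on library totals (-0.11, adjusted p = 0.0837). CKI against Baituling passed narrowly (-0.13 ± 0.05, adjusted p = 0.0445), although libraries of the 2 groups overlapped and library totals turned the sign (0.16). It did not pass without CKI replicate 1, CKI replicate 2 or Baituling replicate 3 (-0.09, -0.12 and -0.07, adjusted p = 0.190, 0.114 and 0.290). With the counts of the 2 genes summed, CKI was above Kushen by 0.24 ± 0.06 (adjusted p = 0.00195), Kushen was below Baituling (-0.35 ± 0.06, adjusted p = 1.06e-05), and CKI against Baituling did not pass (-0.12 ± 0.06, adjusted p = 0.0626).

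HSPA8 encodes the constitutive HSP70 (HSC70), on chromosome 11 at 122928197 to 122933938, minus strand, where small nucleolar RNA genes lie within its introns. It was at 813, 828 and 823 CPM in CKI, at 931, 995 and 880 in Kushen and at 1098, 1078 and 1030 in Baituling. The 3 treatments did not overlap, in the order CKI, Kushen, Baituling. The log2 fold change was -0.19 ± 0.04 in CKI against Kushen (adjusted p = 0.00235), -0.38 ± 0.04 in CKI against Baituling (adjusted p = 2.15e-07) and -0.19 ± 0.04 in Kushen against Baituling (adjusted p = 0.000689). The last was 0.02 on library totals.

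HSPH1 encodes HSP110, a nucleotide exchange factor of HSP70 that also helps to take protein aggregates apart, on chromosome 13 at 31709110 to 31736525, minus strand. Its order was the opposite of that of HSPA8, with 115.6, 113.1 and 120.5 CPM in CKI, at 100.3, 101.5 and 96.2 in Kushen and at 83.2, 94.2 and 90.4 in Baituling. No group overlapped with another. CKI was higher than Kushen by 0.23 ± 0.05 (adjusted p = 0.000958) and higher than Baituling by 0.38 ± 0.05 (adjusted p = 7.86e-07) on the log2 scale, and Kushen was higher than Baituling by 0.16 ± 0.05 (adjusted p = 0.00902). These 3 differences kept their direction and passed an adjusted p of 0.05 under every alternative that tested for any change.

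The constitutive HSP90 gene HSP90AB1, on chromosome 6 at 44213903 to 44221625, plus strand, was the most abundant of the set, between the 10th and 15th highest count of all genes. It was at 1984, 2047 and 2118 CPM in CKI, at 2479, 2498 and 2467 in Kushen and at 3049, 3107 and 3094 in Baituling. The treatments stood clear of each other, with differences several times the spread within a group. The log2 fold change was -0.28 ± 0.04 in CKI against Kushen (adjusted p = 9.97e-06), -0.59 ± 0.04 in CKI against Baituling (adjusted p = 2.22e-11) and -0.31 ± 0.04 in Kushen against Baituling (adjusted p = 2.92e-07). All 3 held under every alternative that tested for any change.

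HSP90AA1, the HSP90 gene that responds to stress, lies on chromosome 14 at 102547079 to 102606036, minus strand, and overlaps WDR20 on the other strand, whose reads an unstranded library cannot separate. It was at 1217, 1217 and 1235 CPM in CKI, at 1366, 1349 and 1295 in Kushen and at 1354, 1378 and 1353 in Baituling. CKI was low in all 3 libraries, and Kushen and Baituling overlapped. CKI was below Kushen (-0.13 ± 0.04, adjusted p = 0.00972) and below Baituling (-0.15 ± 0.04, adjusted p = 0.000908) on the log2 scale, while Kushen against Baituling was -0.03 ± 0.04 (adjusted p = 0.532). On library totals CKI was above Baituling (0.13, adjusted p = 0.00168) and so was Kushen (0.19, adjusted p = 7.35e-05), so no direction against Baituling holds for this gene across scalings, and CKI against Kushen did not pass there (-0.05, adjusted p = 0.232).

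Ratios within a library do not depend on the scaling between libraries, and they compared the inducible with the constitutive gene of each family. The ratio of HSP90AA1 to HSP90AB1 counts was 0.613, 0.595 and 0.583 in CKI, 0.551, 0.540 and 0.525 in Kushen and 0.444, 0.443 and 0.437 in Baituling, with no overlap between treatments. On the log2 scale CKI exceeded Kushen by 0.15 ± 0.03 and Baituling by 0.44 ± 0.02, and Kushen exceeded Baituling by 0.29 ± 0.02 (difference ± SE). Each gave p = 0.1 in a two-sided exact permutation test, the smallest that 3 libraries against 3 allow. The ratio of HSPA1A plus HSPA1B to HSPA8 was 0.130, 0.133 and 0.143 in CKI, 0.0988, 0.0951 and 0.108 in Kushen and 0.106, 0.106 and 0.129 in Baituling. CKI lay above both single herbs, by 0.43 ± 0.07 on the log2 scale against Kushen and 0.26 ± 0.10 against Baituling (exact permutation p = 0.1 for each). Kushen and Baituling overlapped (-0.17 ± 0.11, exact permutation p = 0.3), and without Baituling replicate 3 this difference was -0.07 and that between CKI and Baituling 0.36. The inducible share of HSP70 and of HSP90 counts was thus highest in CKI, although the HSP90AA1 level itself was lowest there on the TMM scale. Nor was HSPA1A plus HSPA1B higher in CKI than in Baituling on that scale (-0.12 ± 0.06, edgeR adjusted p = 0.0626), while HSPA8 was lower (-0.38). The HSP70 ratio separated these 2 groups barely, at 0.1297 in the lowest CKI library and 0.1285 in the highest Baituling library.

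**Figure D2:**
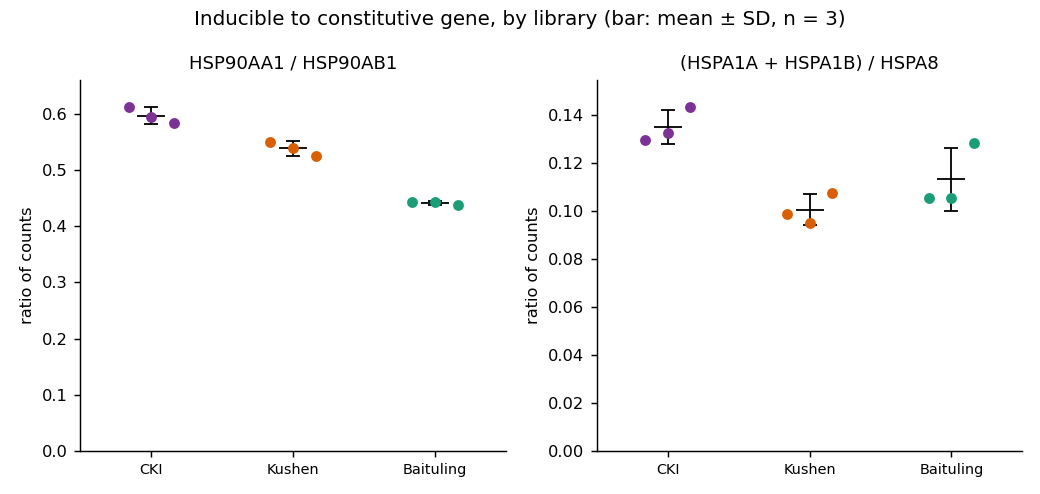
Ratio of counts (vertical axes, from 0) of the inducible to the constitutive HSP90 gene (left) and HSP70 genes (right) in each library, with bars for the mean ± SD (n = 3). The HSP90 ratio was 0.583 to 0.613 with CKI, 0.525 to 0.551 with Kushen and 0.437 to 0.444 with Baituling, and the HSP70 ratio of CKI stood above the other 6 libraries.

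DNAJB1 encodes HSP40, the J-domain partner that delivers clients to HSP70 and a standard target of HSF1. It lies on chromosome 19 at 14625581 to 14671203, minus strand, overlapping TECR on the other strand. It was at 321.9, 328.4 and 329.2 CPM in CKI, at 319.8, 353.2 and 343.1 in Kushen and at 403.0, 387.7 and 399.2 in Baituling. Baituling was high in all 3 libraries and the other treatments overlapped. Both CKI (-0.28 ± 0.04, adjusted p = 6.41e-06) and Kushen (-0.23 ± 0.04, adjusted p = 8.23e-05) were below Baituling, and CKI against Kushen did not pass (-0.05 ± 0.04, adjusted p = 0.343). On library totals neither difference from Baituling passed (0.01 and -0.02, adjusted p = 0.884 and 0.697).

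HSPB1 encodes HSP27, a small heat shock protein that works without ATP, holds unfolding proteins in large oligomers and protects actin filaments. It lies on chromosome 7 at 75931990 to 75933612, plus strand. CKI had 123.9, 133.9 and 147.3 CPM, Kushen 126.7, 148.0 and 155.1, and Baituling 569.0, 483.7 and 491.3. The lowest Baituling library thus stood more than 3-fold above the highest of the other 6, on 8822 to 11664 counts against 3149 to 3729. HSPB1 was 3.81-fold lower in CKI than in Baituling (log2 fold change -1.93 ± 0.07, adjusted p = 1.19e-14) and 3.60-fold lower in Kushen (-1.85 ± 0.07, adjusted p = 3.55e-14). Over all alternatives the log2 fold change stayed between -2.00 and -1.64 in the first comparison and between -1.89 and -1.63 in the second. CKI and Kushen overlapped (-0.08 ± 0.07, 95% interval -0.24 to 0.07, adjusted p = 0.386), and without Kushen replicate 1 CKI was the lower (-0.17, adjusted p = 0.0465). Of the 14195 genes tested, 166 (1.17%) were at least as far below Baituling as HSPB1 in the CKI comparison and 182 (1.28%) in the Kushen comparison.

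BAG3 encodes a co-chaperone that releases clients from HSP70 and directs them to selective autophagy, together with small heat shock proteins. It lies on chromosome 10 at 121410892 to 121437331, plus strand. It was at 174.9, 173.4 and 182.6 CPM in CKI, at 161.3, 177.9 and 182.4 in Kushen and at 249.5, 245.2 and 240.3 in Baituling. Every Baituling library was above the other 6. The log2 fold change was -0.47 ± 0.05 in CKI against Baituling (adjusted p = 2.16e-08) and -0.50 ± 0.05 in Kushen against Baituling (adjusted p = 1.27e-08), with 0.03 ± 0.05 between CKI and Kushen (adjusted p = 0.695).

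HSF1, the transcription factor of the response, lies on chromosome 8 at 145515273 to 145538383, plus strand, overlapping DGAT1 on the other strand. It was at 175.8, 182.5 and 179.0 CPM in CKI, at 162.2, 171.1 and 185.5 in Kushen and at 229.5, 216.5 and 224.6 in Baituling, which was high in all 3 libraries. It was lower in CKI (-0.32 ± 0.05, adjusted p = 5.11e-06) and in Kushen (-0.37 ± 0.05, adjusted p = 9.04e-07) than in Baituling, while CKI against Kushen did not pass (0.05 ± 0.05, adjusted p = 0.418). On library totals the difference between CKI and Baituling was lost (-0.03, adjusted p = 0.497), while that between CKI and Kushen passed (0.13, adjusted p = 0.0238). HSF1 acts mainly through its activation as a protein, which RNA levels do not measure.

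Counted over the set, 3 genes passed an adjusted p of 0.05 as higher in CKI than in Kushen (HSPA1A, HSPA1B, HSPH1), 3 as lower (HSPA8, HSP90AA1, HSP90AB1) and 4 did not pass. Of all genes tested 39.8% passed, 19.6% higher and 20.2% lower. None of the 10 was called, meaning an adjusted p under 0.05 and more than 2-fold change, against 1.9% of all genes (1.7% higher and 0.197% lower). DESeq2 also called 0, and an unadjusted p under 0.05 in edgeR was reached by the 6 genes that passed. The median log2 fold change of the set was -0.01, and of all genes 0.01.

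In CKI against Baituling 1 gene was higher (HSPH1), 8 were lower and 1 did not pass (HSPA1A), beside 76.1% of all genes passing, 39.1% higher and 37% lower. The set's median log2 fold change was -0.30, and that of all genes 0.03. HSPB1 alone was called, where 19.1% of all genes were called, 11.2% as higher and 7.91% as lower. In Kushen against Baituling 1 was higher (HSPH1), 8 were lower and 1 did not pass (HSP90AA1), beside 71.6% of all genes passing, 35.6% higher and 36.1% lower. The median was -0.32 against 0.02, and again HSPB1 alone was called, where 15.2% of genes were called, 8.5% as higher and 6.73% as lower. Library totals changed these splits to 4 higher and 4 lower (CKI against Baituling), 2 higher and 5 lower (Kushen against Baituling) and 4 higher and 2 lower (CKI against Kushen). The 2 comparisons with Baituling share its libraries and are not independent of each other.

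Whether the libraries of 2 groups overlapped at all gave similar counts. The groups did not overlap for 6 genes of the set in CKI against Kushen, 3 higher and 3 lower, beside 49.5% of all genes (25.2% higher and 24.2% lower). For CKI against Baituling the count was 8, with 1 higher and 7 lower, beside 78.3% of all genes (40.3% higher and 38% lower). For Kushen against Baituling it was 9, with 1 higher and 8 lower, beside 73.1% (36.4% higher and 36.7% lower). A complete separation of the 3 libraries was therefore common among all genes in these data.

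**Figure D3:**
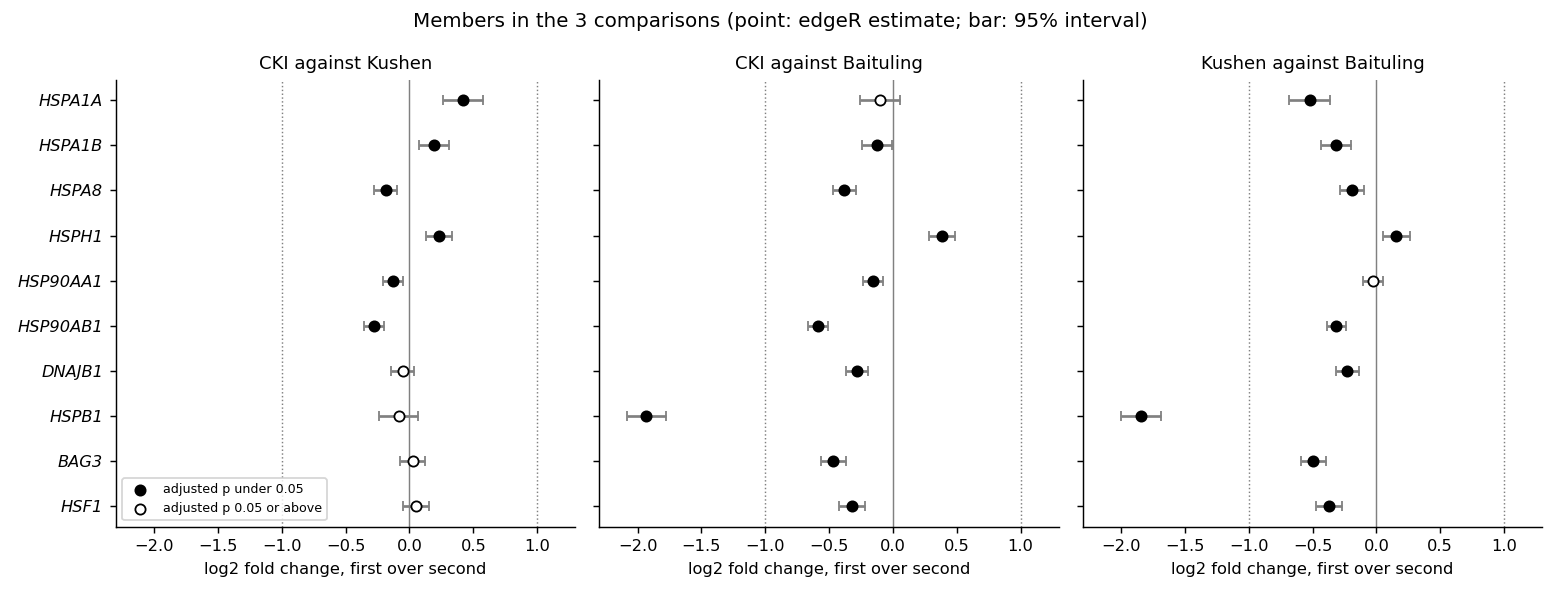
Log2 fold change (horizontal axis, first treatment over second) of each of the 10 genes in the 3 comparisons, as the edgeR estimate with its 95% interval, filled where the adjusted p was under 0.05 and with dotted lines at 2-fold. HSPB1 alone lay beyond the dotted lines, at -1.93 and -1.85 against Baituling, and HSPH1 alone was filled to the right of 0 there.

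The rest of the chaperone network was described with 8 lists of 69 symbols, of which 68 were in the table and 62 were tested. In CKI against Kushen 12 were higher, 14 lower and 36 did not pass, with a median of 0.01. In CKI against Baituling 15 were higher, 34 lower and 13 did not pass (median -0.14), and in Kushen against Baituling 12 were higher, 33 lower and 17 did not pass (median -0.19). The shares over all genes beside these counts are those given for the set. Library totals turned the balance in the first 2 comparisons to 24 higher with 8 lower and 32 higher with 16 lower, and in the last to 23 higher with 15 lower. Directions for lists of small differences therefore hold on the TMM scale only, while the genes that changed more than 2-fold are given below.

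**Figure D4:**
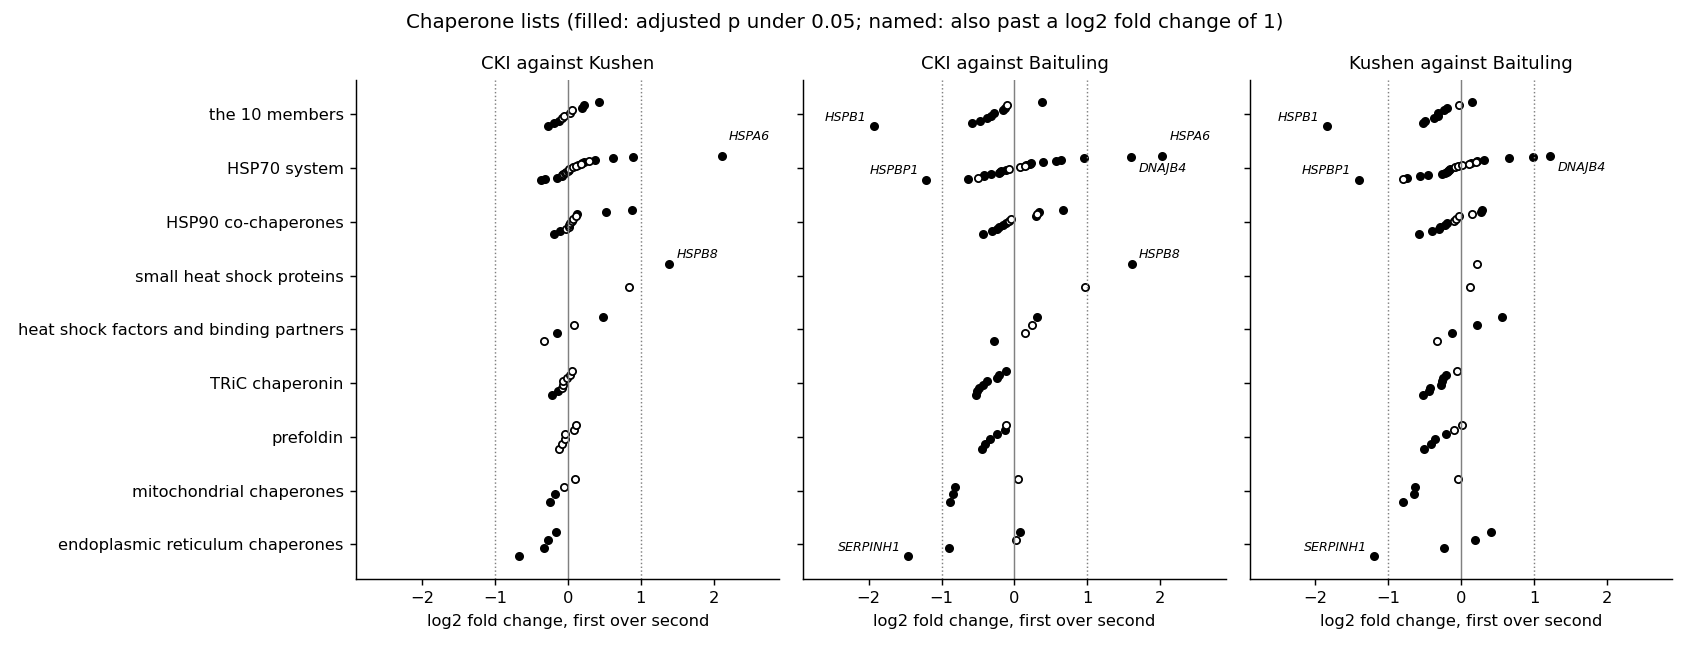
Log2 fold change (horizontal axis, first treatment over second) of every tested gene of the 10 and of the 8 other chaperone lists (vertical positions), filled where the adjusted p was under 0.05 and named where the change was also more than 2-fold. HSPA6 and HSPB8 stood out to the right in both comparisons of CKI, DNAJB4 in both comparisons with Baituling, and HSPB1, HSPBP1 and SERPINH1 to the left in the comparisons with Baituling.

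The strictly inducible HSP70 gene HSPA6, which is almost silent in unstressed cells, was the gene of these lists with the largest change. It was at 5.10, 5.36 and 4.62 CPM in CKI, at 0.845, 1.03 and 1.64 in Kushen and at 1.42, 1.04 and 1.22 in Baituling, on 117 to 133 counts against 19 to 37. CKI alone was high, 4.32-fold above Kushen (log2 fold change 2.11 ± 0.20, adjusted p = 1.34e-07) and 4.07-fold above Baituling (2.03 ± 0.21, adjusted p = 3.09e-08), and Kushen and Baituling overlapped (-0.09 ± 0.27, adjusted p = 0.783). Of its 150-base stretches 15.3% also occur in HSPA7, so some reads may belong to that gene. HSPB8, a small heat shock protein that forms a complex with BAG3, was likewise high in CKI alone. It was at 18.0, 17.9 and 19.6 CPM in CKI, at 7.81, 5.58 and 7.72 in Kushen and at 5.51, 6.36 and 6.35 in Baituling. The log2 fold change was 1.39 ± 0.11 in CKI against Kushen (adjusted p = 8.29e-09) and 1.61 ± 0.11 in CKI against Baituling (adjusted p = 1.14e-10), with 0.21 ± 0.13 between the single herbs (adjusted p = 0.142). That difference passed without Kushen replicate 2 (0.36, adjusted p = 0.0101) and on library totals (0.43, adjusted p = 0.00606).

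HSPA6 and HSPB8 are shown with their HSF1 letters, since both were more than 2-fold higher with CKI than with either single herb. They were chosen by these values, and whether HSF1 or its letters bear on the levels was not tested. HSPB1, which also has a pair, was low with CKI and Kushen. Other genes higher with CKI than with either herb included DNAJB4, which held a pair, and CHORDC1, which held overlapping triplets and further pairs (not shown). They also included HSPH1 and DNAJB2 (log2 fold change 0.62 against Kushen and 0.63 against Baituling), which held none in this window. The stretch of HSPB8 lay inside its annotated span and that of HSPA6 inside another gene model, neither in an exon. HSPA6 held a further pair, starting 180 bases before its start, that is not shown.
HSPA6, chr1:161494236-161494288, plus strand: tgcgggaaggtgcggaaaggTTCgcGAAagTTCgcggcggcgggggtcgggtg
HSPB8, chr12:119616628-119616675, plus strand: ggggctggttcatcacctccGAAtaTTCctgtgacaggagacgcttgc

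DNAJB4, a J-domain partner of HSP70 closely related to DNAJB1, was at 35.6, 36.1 and 34.1 CPM in CKI, at 25.2, 29.4 and 27.0 in Kushen and at 11.5, 12.2 and 11.2 in Baituling. Its direction against Baituling was opposite to that of DNAJB1 on the TMM scale, and no groups of DNAJB4 overlapped. On the log2 scale CKI was above Baituling by 1.60 ± 0.07 (adjusted p = 1.91e-13), Kushen was above Baituling by 1.23 ± 0.08 (adjusted p = 2.35e-11), and CKI was above Kushen by 0.37 ± 0.06 (adjusted p = 0.000124). HSPBP1, a nucleotide exchange factor that inhibits HSP70 refolding, was at 45.6, 48.9 and 51.1 CPM with CKI, at 38.1, 44.4 and 45.1 with Kushen and at 119.2, 110.3 and 108.4 in Baituling. It was lower in CKI (-1.22 ± 0.06, adjusted p = 9.15e-13) and in Kushen (-1.41 ± 0.06, adjusted p = 1.90e-13) than in Baituling, and slightly higher in CKI than in Kushen (0.19 ± 0.06, adjusted p = 0.0243). The last was lost without CKI replicate 2 (adjusted p = 0.0730), CKI replicate 3 (adjusted p = 0.114) or Kushen replicate 1 (0.12, adjusted p = 0.140). Over the HSP70 system of 22 genes, 7 were higher and 3 lower in CKI against Kushen. The counts were 9 and 9 for CKI against Baituling, while Kushen against Baituling gave 6 and 10. On library totals they were 10 higher and 2 lower, 13 and 3, and 10 and 3 in the same order. Of all genes on the TMM scale 19.6% were higher and 20.2% lower, 39.1% and 37%, and 35.6% and 36.1%.

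**Figure D5:**
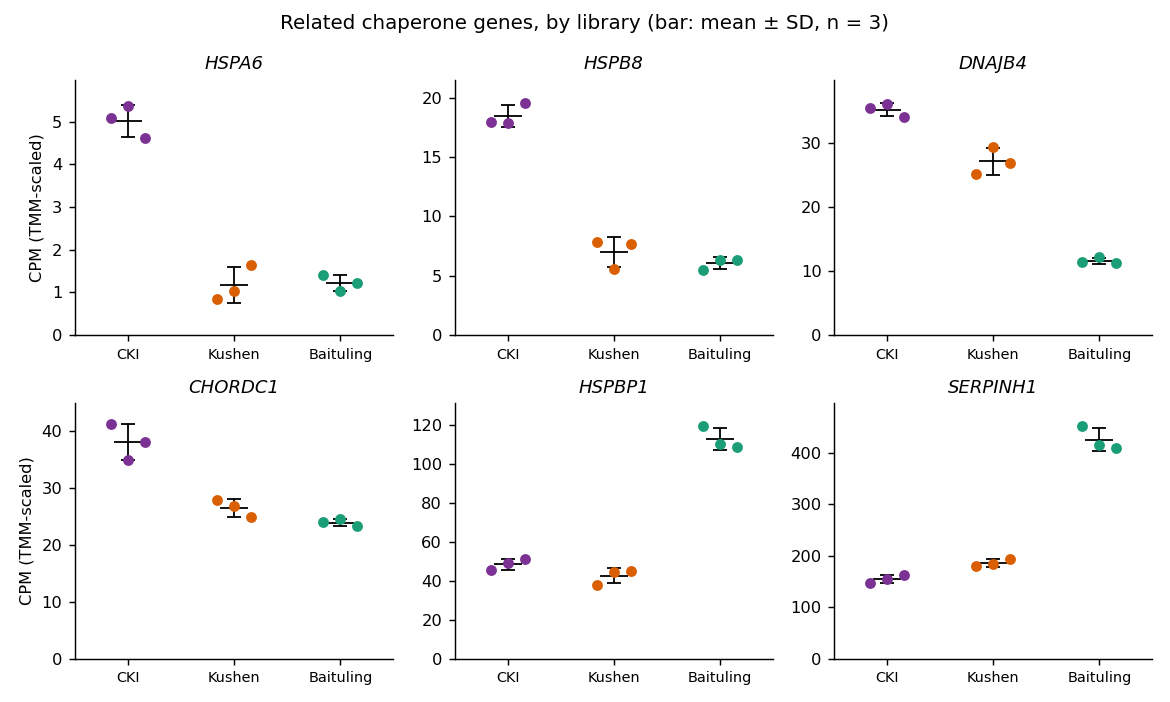
CPM (vertical axes, from 0) of 6 genes from the other lists in each library, with 3 points per treatment and a bar for the mean ± SD (n = 3). HSPA6 and HSPB8 were high in CKI alone, DNAJB4 and CHORDC1 were highest in CKI, and HSPBP1 and SERPINH1 were high in Baituling.

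Of the 12 HSP90 co-chaperones 3 were higher and 2 lower in CKI against Kushen. The counts were 3 and 6 for CKI against Baituling, and for Kushen against Baituling they were 2 and 6, beside the shares over all genes given for the set. On library totals they turned to 8 higher and 1 lower and to 5 higher and 2 lower, and in CKI against Kushen to 7 and 1. In edgeR and in DESeq2 0 of the 12 were called, although 6, 9 and 8 of them had an unadjusted p under 0.05 in the 3 comparisons. CHORDC1, an HSP90 partner that is itself induced by heat, was at 41.3, 34.9 and 38.1 CPM in CKI, at 27.8, 26.8 and 24.8 in Kushen and at 23.95, 24.46 and 23.30 in Baituling. It was high in CKI, by 0.52 ± 0.07 on the log2 scale against Kushen (adjusted p = 5.45e-06) and 0.67 ± 0.07 against Baituling (adjusted p = 3.48e-08), and its difference between Kushen and Baituling did not pass (0.15 ± 0.07, adjusted p = 0.0705). It passed on library totals (0.36, adjusted p = 0.000230), with upper quartile scaling (adjusted p = 0.0116), with at least 10 counts in every library (adjusted p = 0.0306), with only the 2 groups compared (adjusted p = 0.0406) and without Kushen replicate 3 (0.21, adjusted p = 0.0243). TTC4, which binds HSP70 and HSP90, had only 17 to 49 counts per library and was higher in CKI than in Kushen (0.88 ± 0.23, adjusted p = 0.00486).

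Of 8 further small heat shock proteins, 2 had enough counts to be tested, HSPB8 and HSPB6. HSPB6 had 4 to 21 counts and passed in no comparison, and CRYAB, the αB-crystallin gene, had 0 to 3 counts. Among heat shock factors and their partners 4 of 5 were tested. HSF2, a second heat shock factor, was at 25.4 ± 1.02 CPM with CKI, 23.9 ± 2.19 with Kushen and 20.6 ± 1.46 with Baituling (mean ± SD, n = 3), and it was higher in CKI than in Baituling (0.31 ± 0.08, adjusted p = 0.00129). HSF4 varied widely within groups, from 12.5 to 17.9 CPM in CKI and from 14.2 to 22.9 in Kushen, and was higher in Kushen than in Baituling (0.57 ± 0.15, adjusted p = 0.00230). HSF2BP, a binding partner of HSF2, had a higher level with CKI than with Kushen (0.48 ± 0.16, adjusted p = 0.0208), a call lost with DESeq2 (adjusted p = 0.0639) and without CKI replicate 1, CKI replicate 3, Kushen replicate 1 or Kushen replicate 3 (adjusted p = 0.0543 to 0.102).

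The chaperonin TRiC folds actin and tubulin, and prefoldin hands those proteins to it. All 8 TRiC subunit genes were lower in CKI than in Baituling, with a median log2 fold change of -0.40, and 7 of 8 were lower in Kushen than in Baituling (median -0.26). In CKI against Kushen 2 of the 8 were lower. Beside these and the prefoldin counts below, 37% of all genes were lower in CKI and 36.1% in Kushen than in Baituling. Between CKI and Kushen 20.2% of all genes were lower with CKI. On library totals 5 of the 8 stayed lower and 1 was higher in CKI against Baituling, and 3 were lower and 1 higher in Kushen against Baituling. CCT3 had the largest change, at 334 ± 8.93 CPM with CKI, 336 ± 2.34 with Kushen and 482 ± 14.9 with Baituling (-0.53 ± 0.04 in CKI against Baituling, adjusted p = 3.52e-10), and CCT4 was below Kushen with CKI (-0.22 ± 0.05, adjusted p = 0.00117). Of 6 prefoldin genes 5 were lower in CKI and 4 in Kushen than in Baituling on the TMM scale, with the largest change in PFDN6 for CKI (-0.44, adjusted p = 4.67e-08) and in PFDN2 for Kushen (-0.51, adjusted p = 2.49e-08). On library totals 2 were lower and 2 higher in CKI, and 3 lower and 1 higher in Kushen. Between CKI and Kushen 0 passed in edgeR and in DESeq2, with 2 at an unadjusted p under 0.05, beside 39.8% of all genes passing in edgeR. PFDN2 passed there without CKI replicate 1 (adjusted p = 0.0366) and PFDN5 without Kushen replicate 2 (adjusted p = 0.00859).

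Among chaperones of other compartments, 3 of 4 mitochondrial genes were lower in CKI and in Kushen than in Baituling. On library totals 3 were lower and 1 higher in each of these comparisons. Of all genes 37% (CKI) and 36.1% (Kushen) were lower than in Baituling on the TMM scale. HSPE1, the mitochondrial HSP10, was at 48.0 ± 1.65 CPM with CKI, 49.6 ± 2.07 with Kushen and 85.8 ± 2.82 with Baituling (-0.84 ± 0.05 in CKI, adjusted p = 1.07e-11, and -0.79 ± 0.05 in Kushen, adjusted p = 3.62e-11), and TRAP1, the mitochondrial HSP90, was also below Baituling in CKI (-0.88 ± 0.06, adjusted p = 2.91e-11). All 4 endoplasmic reticulum genes were lower with CKI than with Kushen (3 of 4 on library totals), led by HSP90B1, the HSP90 of that compartment (-0.66 ± 0.04, adjusted p = 2.33e-10). In that comparison 20.2% of all genes were lower on the TMM scale. SERPINH1, the collagen chaperone HSP47, was at 147, 155 and 162 CPM with CKI, at 180, 185 and 194 with Kushen and at 451, 416 and 410 in Baituling. It was lower than in Baituling in CKI (-1.46 ± 0.05, adjusted p = 1.67e-15) and in Kushen (-1.19 ± 0.05, adjusted p = 4.77e-14), the latter -0.98 on library totals and then short of 2-fold.

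Genes outside the set with the most similar levels were found by the root mean square difference of log2 CPM, centred over the 9 libraries. Near to HSPA1A plus HSPA1B were USP10 (0.0452) and KHDC1 (0.0605). Those nearest to DNAJB1 were TADA3 (0.0250), NUP188 (0.0250) and DNM2 (0.0272). USP10 and KHDC1 share with the inducible HSP70 genes that Kushen was the lowest of the treatments, and the other 3 share with DNAJB1 that Baituling was the highest. These shared orders follow from how the genes were selected and are no separate result.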

How the data were processed

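RNA of 9 libraries (3 per treatment) was sequenced unstranded and paired-end. Per the labels and the submitters' processing notes, the authors trimmed reads with Trim Galore 0.3.7, aligned them with STAR 2.5.3a to hg19 and deposited raw counts per gene without normalization. The counting program, annotation and handling of reads that fit several genes are not given in the sources used here. Of 24566 entries 222 repeated a gene with identical counts and were dropped, which left 24344 genes. Names, positions and canonical lengths came from GENCODE on GRCh37, and promoter windows from RefSeq.

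From the counts, edgeR 4.0.16 (R 4.3.3) fitted a quasi-likelihood model with group as its only term to all 9 libraries after filterByExpr (minimum count 10, total 15), which kept 14195 genes, with TMM scaling. The standard error is the absolute log2 fold change over the root of F. P-values are two-sided, Benjamini-Hochberg adjusted over all genes tested, and a gene was called at 0.05 with a log2 fold change past 1, the threshold of the study. Ratios were tested by exact permutation. The fit was checked on simulated data. Alternatives were library totals, upper quartile scaling, DESeq2 1.42.0, other filters, only the groups compared, a replicate block, glmTreat and leaving out each library. glmTreat tests against a log2 fold change of 1 and was used for the counts of called genes only, not for single genes.

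Libraries held 20144628 to 23782071 counts, and the biological coefficient of variation was 4.53%. Replicates differed by more than sampling noise (chi-square per gene 1.70 to 6.85 in 9 pairs). Named were all genes of the set, each gene of the 8 lists that was called or had its list's largest change in a comparison, and the 3 genes nearest in level to HSPA1A plus HSPA1B and to DNAJB1, of which 1 is not reported here. HSPB6, CRYAB and DNAJB2 were named after their values were seen. The set and the lists were chosen with earlier results of these data known.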

Additional observations from a re-analysis of the deposited data

How the results depend on the processing

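Of 1593 values recomputed for 28 named genes, 1504 kept their direction and their side of the adjusted p, 38 lost and 29 gained a pass, and 22 changed sign. In 4, 5 and 6 of the 10 genes (CKI against Kushen, CKI against Baituling, Kushen against Baituling) every alternative other than glmTreat kept the direction and the side of the adjusted p.

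Library totals changed 12 signs, to log2 values of 0.19 for HSPA1A, 0.16 for HSPA1B, 0.13 for HSP90AA1, 0.0062 for DNAJB1 and 0.17 for PFDN5 in CKI against Baituling. In Kushen against Baituling they gave 0.019 for HSPA8, 0.19 for HSP90AA1, 0.0047 for CCT4 and 0.13 for HSPA6, and in CKI against Kushen 0.023 for DNAJB1, 0.067 for CCT3 and 0.029 for HSPE1. The other 10 changes of sign did not pass an adjusted p of 0.05. HSP90AA1 in Kushen against Baituling was 0.043 with upper quartile scaling and 0.0063 with at least 10 counts in every library, where CCT3 in CKI against Kushen was 0.0016. With single libraries left out, HSP90AA1 in Kushen against Baituling ranged from -0.043 to 0.0079 (highest without Kushen replicate 3), HSPA6 from -0.38 to 0.10 (highest without Kushen replicate 1, 0.048 without Baituling replicate 1) and PFDN5 from -0.055 (without Kushen replicate 1) to 0.077, with -0.021 without Baituling replicate 2. In CKI against Kushen BAG3 ranged from -0.027 (without Kushen replicate 1) to 0.050, and CCT3 from -0.031 to 0.0067 (without CKI replicate 1). The cause of these changes was not tested.

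Of 270 counts and ratios recomputed, 269 stayed within 1.5 times the reported count or within the spread between replicates of the reported ratio. For the ratios, recomputing per kb of exon or as the mean difference of same-numbered libraries cannot change the log2 difference. Those values were fixed in advance and say nothing about stability. The ratio of HSPA1A plus HSPA1B to HSPA8 leaned on Baituling replicate 3: with single libraries left out its log2 difference ranged from -0.22 to -0.07 in Kushen against Baituling and from 0.21 to 0.36 in CKI against Baituling. The value outside these limits was the number of list genes called in Kushen against Baituling, which was 3 to 5 when single libraries were left out and 5 without Kushen replicate 2. Scaling factors from genes other than the 10, an alternative chosen after seeing the data, changed no count of the set by more than 1.5 times. Same-numbered libraries of different treatments did not visibly deviate together (correlations -0.07 to 0.12 over 9 pairs). Differently numbered libraries gave -0.15 to 0.18. No pairing by number was seen, which does not show how the replicates were run. A fit with the replicate block left the counts of the set that passed at 6, 9 and 9. Those of the lists were 26, 46 and 45 with the block against 26, 49 and 45 without it. Low counts per library, 19 to 37 for HSPA6 in the single-herb groups and 17 to 49 for TTC4, limit what could be seen there.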
